A study of Mus musculus with 4 samples.

Results

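The genes described here are 40 genes of the actin cytoskeleton, listed by name: the actins themselves, the proteins that cross-link and anchor actin filaments, the contractile and filament-coating proteins of stress fibres, the proteins that hold or nucleate actin monomers, the linkers between filaments and membrane, and 3 proteins of the brush border. They were chosen by symbol, with earlier results of these data known, as columns present in all 4 count tables. Of the 40, 39 have a column among 25289 gene columns. The remaining gene has no column under its symbol and is not analysed here. They were followed in adult C57BL/6J mouse small intestine with inDrop, which tags the messenger RNA of each cell in its own droplet. The control group, with 2 libraries, was Lats1fl/fl Lats2fl/fl without Cre. The Lats-deleted group, also with 2 libraries, carried Lrig1-CreERT2 on the same Lats1fl/fl Lats2fl/fl background, so that a tamoxifen-dependent Cre recombinase was made in cells that express Lrig1, a gene of crypt stem and progenitor cells. All mice of both groups were given 2 mg of tamoxifen into the peritoneum, and the intestine was taken at day 7. Living EpCAM-positive cells negative for the blood markers CD45 and TER119 were sorted, 5000 per condition.

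Actin filaments are built from a pool of monomers that is held by thymosins and profilins and used by the Arp2/3 complex, which starts branches. In a resting enterocyte most of the ordered actin lies in the microvilli of the brush border, where villin and espin bundle the filaments, myosin-1a ties them to the membrane and ezrin anchors them at the surface. Spreading and migrating cells build stress fibres instead, from filaments cross-linked by alpha-actinin and filamin, coated by tropomyosin, calponin and caldesmon, and pulled by non-muscle myosin. LATS1 and LATS2 are kinases of the Hippo pathway, which restrain the coactivators YAP and TAZ, and filament tension and Hippo signalling are known to influence each other. The comparison asks how these 2 sides of the cytoskeleton differ once both kinases are deleted from Lrig1-expressing cells, by library and by cell state.

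The libraries differed in more than the genotype. Total counts were 2872497 and 2247269 in control libraries 1 and 2 and 4731529 and 9191916 in Lats-deleted libraries 1 and 2. Barcodes had to hold 1000 counts or more from 300 genes or more, with a mitochondrial share of no more than 30%. After this filter 774 and 515 control cells and 726 and 1289 Lats-deleted cells remained, and 4 to 12 of the kept barcodes occurred in both of any 2 libraries. The median cell held 1708 and 1995 counts in the controls and 3715.5 and 3848 in the Lats-deleted libraries, and median mitochondrial shares were 9.55% and 6.84% against 3.64% and 3.90%. Xist, made from the inactive X chromosome, stood at 9.35 and 6.51 on the counts-per-million (CPM) scale in the controls and 640.0 and 505 CPM in the Lats-deleted pair, so that the sex of the mice and the genotype cannot be told apart. The 14 enterocyte markers summed to 27381 and 27424 CPM in the controls and to 2260 and 1106 CPM in the Lats-deleted pair. The 9 stomach markers with a column summed to 9899 CPM in Lats-deleted library 2 and to between 35.0 and 89.8 CPM in the other 3. Lats-deleted library 2 is labelled small intestine, and whether its stomach markers came from stomach tissue or from intestinal cells was not tested. Results below are therefore also given without that library or without its stomach-like cells where this moves them. The 13 stromal markers summed to 1720 CPM in Lats-deleted library 1 and 275 CPM in Lats-deleted library 2, against 56.1 and 43.1 CPM in the controls, although the sort was for EpCAM. Lats1 was lower in the libraries labelled Lats-deleted (log2 fold change -1.83, edgeR adjusted p = 0.0087) and Lats2 was higher (1.26, edgeR adjusted p = 0.0305). Counts that lie outside the deleted part of a gene do not check a deletion, and the labels do not say which part was removed.

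Summed over all kept cells, most of the listed genes were higher in the Lats-deleted libraries, and the 3 brush border genes were lower. Of the 39 genes, 38 passed the filter on low counts, and 24 rose, 4 fell and 10 did not pass the threshold (edgeR quasi-likelihood test, adjusted p under 0.05). The 4 that fell were Vil1, Espn, Myo1a and Lima1. Over all 12561 genes tested, 30.8% were called, 15.3% higher and 15.5% lower. The groups did not overlap for 32 of the 38 genes in the higher direction and for 5 in the lower, where 68.8% of all genes did not overlap, 35.6% higher and 33.2% lower. The median log2 fold change of the 38 genes was 1.52, beside 0.05 over all genes. Since the genes were chosen with earlier results of these data known, their distance from all genes is a description and not a test. When plain library totals replaced TMM scaling, the median over all genes moved by 0.25, and of the genes called 63.8% were higher in place of 49.7%. The 28 calls among the listed genes kept their direction and passed the threshold under both scalings. Without the stomach-like cells of Lats-deleted library 2, 26 listed genes rose and 4 fell, where 4240 of the 12601 genes tested were called. Leaving out a control library gave fewer calls than the main fit, among the listed genes and over all genes. Leaving out a Lats-deleted library gave more calls in both. Each fit without a library leaves 1 group with a single library, which is assumed to vary like the other group, here and below. In sums over a library, fewer cells of a type and less RNA per cell cannot be told apart. The labels do not say whether the 2 libraries of a group come from separate mice, and the p-values rest on the spread between libraries, which may be technical.

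**Figure D1:**
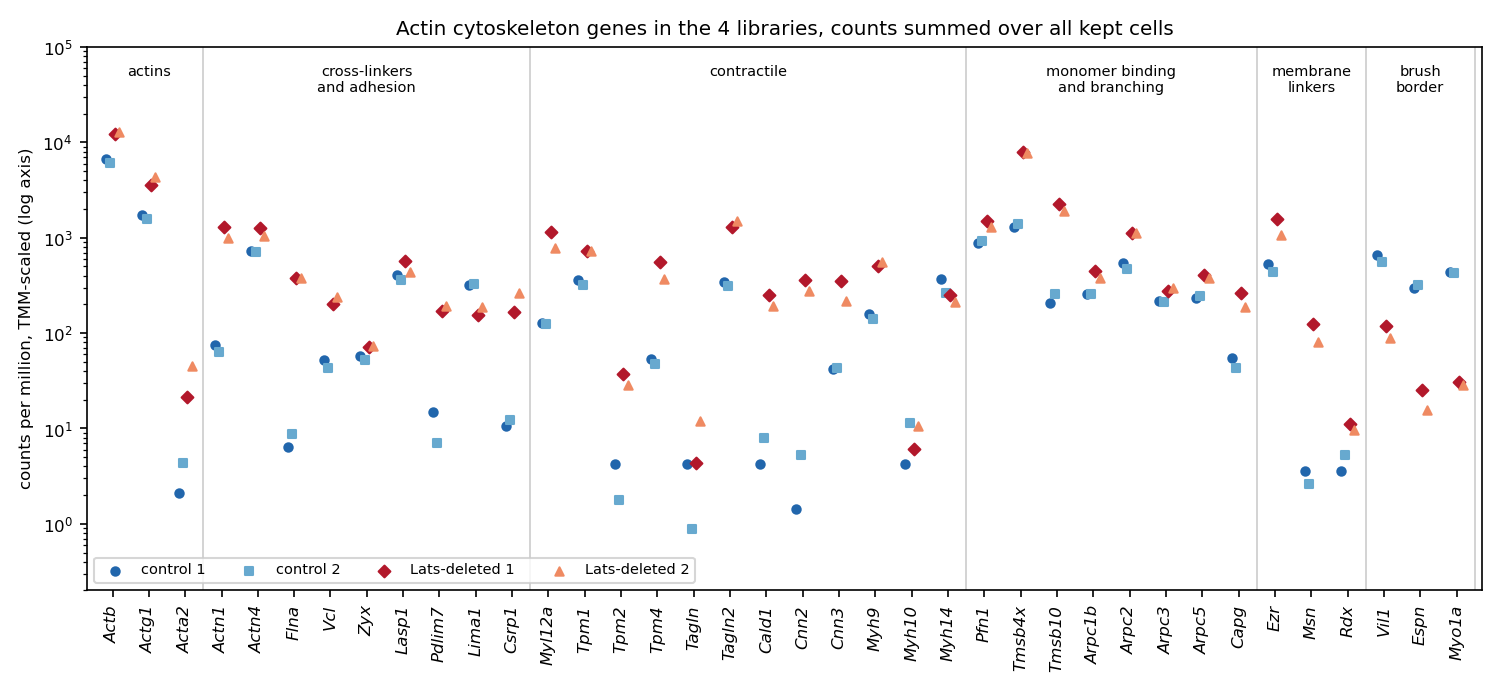
Level of 38 actin cytoskeleton genes in each library, in TMM-scaled CPM on a log axis, with genes grouped by role and 1 symbol per library. Vil1, Espn and Myo1a at the right are lower in both Lats-deleted libraries, while Flna, Cnn2, Cald1 and Msn are more than 10 times higher in both. Heights are read within a gene and not between genes, since counts are not scaled for length.

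All 3 actins rose. Actb, the cytoplasmic beta-actin, stood at 6649 and 6061 CPM in the controls against 12240.4 and 12816 CPM in the Lats-deleted pair, a log2 fold change of 0.98 ± 0.22 (SE, edgeR adjusted p = 0.0163). Actg1, the cytoplasmic gamma-actin, stood at 1710.5 and 1561 CPM in the controls against 3562 and 4289 CPM in the Lats-deleted pair, a log2 fold change of 1.26 ± 0.23 (SE, edgeR adjusted p = 0.00762). In both genes each Lats-deleted library lay above each control library. Acta2, the actin of smooth muscle and myofibroblasts, rose from 2.12 and 4.39 CPM to 21.3 and 45.2 CPM (log2 fold change 3.39 ± 0.59, SE, edgeR adjusted p = 0.0062). Its counts were few and uneven: 1 cell held 37.3% of the Acta2 counts of Lats-deleted library 1, and 1 cell held 21.2% of those of library 2. Of the Acta2 counts in these libraries, 91.6% and 64.4% lay in regenerative-like cells, and 4.82% and 0% in stromal-like cells. Myh11, Des, Actg2 and the other markers of smooth muscle summed to 154 and 84.4 CPM in the Lats-deleted pair and to 53.6 and 71.6 CPM in the controls, with all 6 detected in each Lats-deleted library, and their part in the Acta2 value was not tested. The 3' ends of Actb and Actg1 share 20.1% and 45.0% of their 40-base words with pseudogenes and other genes, so reads could have been divided between them. The Actb call was lost without either control library and with the replicate number as a block, with an adjusted p of up to 0.268. The Actg1 call was lost without either control library, where the adjusted p reached 0.167, and the Acta2 call without control library 1, with an adjusted p of 0.0891.

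Among the 9 cross-linkers and adhesion genes, 5 rose, 1 fell and 3 did not pass the threshold. Flna encodes filamin A, which joins filaments into a network and ties them to integrins. It stood at 6.37 and 8.79 CPM in the controls against 376 and 375 CPM in the Lats-deleted pair, a log2 fold change of 5.64 ± 0.29 (SE, edgeR adjusted p = 0.000183), with no overlap. Flna, Msn and Tmsb4x are X-linked, and Xist differed between the groups as given above, and the part of sex in their values was not tested. Actn1, the alpha-actinin of focal adhesions and stress fibres, stood at 74.3 and 63.3 CPM in the controls against 1300.1 and 985 CPM in the Lats-deleted pair, a log2 fold change of 4.05 ± 0.28 (SE, edgeR adjusted p = 0.000245). Its paralog Actn4 was already at 732 and 710.1 CPM in the controls and was at 1271 and 1039.6 CPM in the Lats-deleted pair, a log2 fold change of 0.68 ± 0.23 (SE, edgeR adjusted p = 0.0624). The groups did not overlap for Actn4 although the threshold was missed, and 6 of the alternative settings called it higher. Csrp1, a LIM-domain protein of actin bundles, stood at 10.6 and 12.3 CPM in the controls against 168 and 263 CPM in the Lats-deleted pair (log2 fold change 4.23 ± 0.34, SE, edgeR adjusted p = 0.000338). Pdlim7, an adaptor at stress fibres, stood at 14.9 and 7.03 CPM in the controls against 171 and 192 CPM in the Lats-deleted pair (log2 fold change 4.01 ± 0.34, SE, edgeR adjusted p = 0.000411). Both were over 10-fold higher in each Lats-deleted library than in each control library. Vcl, the vinculin that couples adhesions to actin, rose less, from 51.7 and 43.1 CPM to 204 and 238 CPM (log2 fold change 2.22 ± 0.23, SE, edgeR adjusted p = 0.000824). Zyx, encoding zyxin, a sensor of tension at adhesions, stood at 58.1 and 51.9 against 70.8 and 73.7 CPM (0.39 ± 0.20, SE, edgeR adjusted p = 0.187), and Lasp1, a LIM and SH3 adaptor, at 411 and 359 against 574 and 436 CPM (0.39 ± 0.24, SE, edgeR adjusted p = 0.262). Neither passed the threshold. Lima1, which stabilises and cross-links filaments, went the other way, from 319 and 325 CPM to 155 and 187 CPM (log2 fold change -0.91 ± 0.22, SE, edgeR adjusted p = 0.02). The Lima1 call was lost without control library 1, without control library 2, under DESeq2 and without a filter on low counts, with an adjusted p of up to 0.196. Lima1 was higher in stromal-like cells of library 1 (384 CPM) and in stomach-like cells of library 2 (288 CPM) than in the regenerative-like cells of the same libraries (152 and 166 CPM), and those 2 cell groups held 12% and 32.6% of its counts there.

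Of the 13 contractile and filament-coating genes, 12 passed the filter on low counts, of which 9 rose and 3 did not pass the threshold. The widest changes were in Cnn2, a calponin, and Cald1, the caldesmon, both of which coat filaments and restrain the myosin motor. Cnn2 stood at 1.42 and 5.27 CPM in the controls against 363 and 275 CPM in the Lats-deleted pair, a log2 fold change of 6.63 ± 0.46 (SE, edgeR adjusted p = 0.000256). In the controls this level rests on 8 counts in all. Cald1 stood at 4.25 and 7.91 CPM in the controls against 248 and 191 CPM in the Lats-deleted pair, a log2 fold change of 5.2 ± 0.35 (SE, edgeR adjusted p = 0.000238). The further calponin Cnn3 stood at 42.5 and 43.1 CPM in the controls against 348 and 215 CPM in the Lats-deleted pair, a log2 fold change of 2.72 ± 0.30 (SE, edgeR adjusted p = 0.00108). In all 3 genes the lower Lats-deleted library lay several times above the higher control. The tropomyosins, which wind along the filament and decide which motors reach it, were all higher: Tpm4 at 53.8 and 47.5 against 551 and 369.7 CPM (3.18 ± 0.29, SE, edgeR adjusted p = 0.000521), Tpm1 at 359 and 319.9 against 726 and 723 CPM (1.09 ± 0.22, SE, edgeR adjusted p = 0.0102) and Tpm2 at 4.25 and 1.76 against 36.9 and 28.6 CPM (3.38 ± 0.44, SE, edgeR adjusted p = 0.00205). The Tpm1 call was lost without either control library, with an adjusted p of up to 0.173. Tagln2, the transgelin of non-muscle cells, stood at 346 and 313 CPM in the controls against 1291 and 1508 CPM in the Lats-deleted pair, a log2 fold change of 2.09 ± 0.23 (SE, edgeR adjusted p = 0.0011). Its muscle-type paralog Tagln was scarce, with 4.25 and 0.879 CPM in the controls and 4.36 and 11.9 CPM in the Lats-deleted pair, and did not pass the threshold (1.61 ± 0.79, SE, edgeR adjusted p = 0.172). Stromal-like cells held 52.9% of the 17 Tagln counts of Lats-deleted library 1.

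The myosin genes were divided. Myh9, the heavy chain of non-muscle myosin 2A, rose from 159 and 141 CPM to 511 and 563 CPM (log2 fold change 1.84 ± 0.22, SE, edgeR adjusted p = 0.00148). Myh14, the heavy chain of non-muscle myosin 2C, stood at 366 and 265 against 249 and 209.7 CPM (-0.46 ± 0.25, SE, edgeR adjusted p = 0.204), and Myh10, that of 2B, at 4.25 and 11.4 against 6.16 and 10.6 CPM (0.16 ± 0.55, SE, edgeR adjusted p = 0.859). Only Myh9 of the 3 passed the threshold, and the difference between paralogs was not tested. Myl12a, a regulatory light chain, rose from 128 and 125 CPM to 1152 and 775 CPM (log2 fold change 2.93 ± 0.28, SE, edgeR adjusted p = 0.000626). Its 3' end shares 32.9% of its 40-base words with Myl12b and pseudogenes, and Myl12b itself stood at 394 and 373 against 855 and 518 CPM (0.84 ± 0.29, SE, edgeR adjusted p = 0.069). Myl9, the light chain of smooth muscle and stress fibres, had 1 and 0 counts in the controls and 4 and 6 in the Lats-deleted libraries and was not tested. The calls of Tagln2 and Myh9 were lost without either control library, where the adjusted p rose to 0.052 and 0.0565.

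Of the 8 monomer-binding and branching genes with a column, 5 rose and 3 did not pass the threshold. The thymosins, which hold actin monomers in reserve, moved most. Tmsb4x stood at 1298 and 1399 CPM in the controls against 7946 and 7816 CPM in the Lats-deleted pair, a log2 fold change of 2.55 ± 0.23 (SE, edgeR adjusted p = 0.000496). Tmsb10 stood at 207 and 259 CPM in the controls against 2233 and 1918 CPM in the Lats-deleted pair, a log2 fold change of 3.16 ± 0.26 (SE, edgeR adjusted p = 0.000377). The libraries of each group lay close together in both genes, although 52.2% of the 40-base words at the 3' end of Tmsb10 also occur in pseudogenes. Profilin, which feeds monomers to growing filament ends, was less separated: Pfn1 stood at 883 and 932 against 1490.5 and 1294 CPM (0.62 ± 0.22, SE, edgeR adjusted p = 0.0766). Among the subunits of the Arp2/3 complex, Arpc2 rose from 537 and 470.2 CPM to 1134 and 1116 CPM (1.16 ± 0.22, SE, edgeR adjusted p = 0.00867), and Arpc5 from 235 and 247 CPM to 407 and 382 CPM (0.71 ± 0.21, SE, edgeR adjusted p = 0.0418). Arpc1b at 259.8 and 256 against 444 and 376 CPM (0.67 ± 0.22, SE, edgeR adjusted p = 0.057) and Arpc3 at 219 and 212 against 279 and 295 CPM (0.41 ± 0.20, SE, edgeR adjusted p = 0.172) did not pass the threshold, though neither overlapped between groups. Arpc1b was called higher in 8 of 14 alternative settings and Pfn1 in 5. Without either control library the Arpc2 call was lost (adjusted p up to 0.168), as was the Arpc5 call, which was also lost under the replicate block and at 2000 counts per cell (adjusted p up to 0.29). Capg, which caps filament ends, rose from 54.5 and 43.1 CPM to 265 and 187 CPM (log2 fold change 2.21 ± 0.27, SE, edgeR adjusted p = 0.00162).

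The linkers between filaments and membrane form a family of 3, of which 2 rose. Msn, encoding moesin, the member typical of mesenchymal and blood cells, stood at 3.54 and 2.64 CPM in the controls against 124 and 81.2 CPM in the Lats-deleted pair, a log2 fold change of 5.01 ± 0.40 (SE, edgeR adjusted p = 0.000338). Ezr, encoding ezrin, the member of epithelial microvilli, stood at 532 and 440.3 CPM in the controls against 1553 and 1079.6 CPM in the Lats-deleted pair, a log2 fold change of 1.44 ± 0.27 (SE, edgeR adjusted p = 0.00854). Ezrin thus rose while its partners of the microvillus fell. The Ezr call was lost without either control library, with an adjusted p of up to 0.147. Rdx, encoding radixin, was scarce at 3.54 and 5.27 against 11.0 and 9.58 CPM (1.24 ± 0.42, SE, edgeR adjusted p = 0.0679) and did not pass the threshold. Leukocyte markers summed to 191 and 592 CPM in the controls and to 76.9 and 99.2 CPM in the Lats-deleted pair, and stromal-like cells held 7.04% and 0.6% of the Msn counts of the Lats-deleted libraries.

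All 3 brush border genes fell. Vil1, the villin that bundles microvillar filaments, stood at 656 and 556 CPM in the controls against 120.1 and 89.7 CPM in the Lats-deleted pair, a log2 fold change of -2.53 ± 0.26 (SE, edgeR adjusted p = 0.00076). Espn, the bundling protein espin, stood at 295 and 323 CPM in the controls against 25.1 and 15.8 CPM in the Lats-deleted pair, a log2 fold change of -3.92 ± 0.30 (SE, edgeR adjusted p = 0.000305). Myo1a, the motor that ties the core bundle to the membrane, stood at 441 and 422 CPM in the controls against 31.0 and 28.7 CPM in the Lats-deleted pair, a log2 fold change of -3.85 ± 0.23 (SE, edgeR adjusted p = 0.00019). In each gene both Lats-deleted libraries lay below both controls, and no setting tried lost any of the 3 calls. The enterocyte markers fell with them, as given above, and 72.5% to 88.7% of the counts of the 3 genes in the controls lay in enterocyte-like cells. The part of the lower number of enterocyte-like cells in these sums was not tested. The levels within that state are given below.

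The promoters of 37 of the 39 genes were matched by symbol to RefSeq (GRCm38.p6), each 250 bases before to 50 after the start site. They were searched on both strands for the CArG box, the element bound by SRF, and for GGAATG, the core of the element bound by the TEAD partners of YAP and TAZ. The CArG box occurred in 6 of the 37 genes (16.2%), beside 1.81% of all genes with a promoter and 1.63% of all promoters of that length: Actg1, Cnn2, Vcl, Vil1, Lima1 and Myl9. GGAATG occurred in 11 (29.7%), beside 16.6% of all genes and 14.7% of all promoters, among them Flna, Cald1, Tagln2, Tpm1, Myl12a and Vcl. The 5 promoters with a CArG box whose genes were called are shown because they hold the same element in genes that moved in opposite directions, 5′ to 3′ with the CArG box in capitals.
Cnn2 (chr10:79988350-79988649, + strand): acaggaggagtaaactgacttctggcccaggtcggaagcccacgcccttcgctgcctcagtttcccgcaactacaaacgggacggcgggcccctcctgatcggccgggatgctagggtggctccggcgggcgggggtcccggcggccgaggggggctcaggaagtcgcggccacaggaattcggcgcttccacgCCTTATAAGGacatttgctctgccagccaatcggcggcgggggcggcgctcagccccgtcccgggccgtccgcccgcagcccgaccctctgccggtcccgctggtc
Actg1 (chr11:120348446-120348745, - strand): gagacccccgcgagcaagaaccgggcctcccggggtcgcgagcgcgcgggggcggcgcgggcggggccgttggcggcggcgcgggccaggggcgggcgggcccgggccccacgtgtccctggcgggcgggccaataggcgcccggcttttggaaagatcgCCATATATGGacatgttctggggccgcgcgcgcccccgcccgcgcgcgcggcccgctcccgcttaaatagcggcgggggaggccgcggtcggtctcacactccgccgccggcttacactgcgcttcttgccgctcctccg
Vcl (chr14:20929148-20929447, + strand): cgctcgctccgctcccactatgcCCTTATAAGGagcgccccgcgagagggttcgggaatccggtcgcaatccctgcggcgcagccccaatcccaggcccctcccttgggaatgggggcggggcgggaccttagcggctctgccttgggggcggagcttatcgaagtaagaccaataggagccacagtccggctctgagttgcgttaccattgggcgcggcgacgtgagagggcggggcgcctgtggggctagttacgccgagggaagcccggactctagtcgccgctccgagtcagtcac
Vil1 (chr1:74409134-74409433, + strand): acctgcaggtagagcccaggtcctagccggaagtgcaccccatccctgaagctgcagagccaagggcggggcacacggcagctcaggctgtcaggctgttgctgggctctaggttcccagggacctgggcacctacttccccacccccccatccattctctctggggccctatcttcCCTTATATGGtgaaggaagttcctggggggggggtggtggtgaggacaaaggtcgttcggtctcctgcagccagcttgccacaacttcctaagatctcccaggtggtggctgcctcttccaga
Lima1 (chr15:99820100-99820399, - strand): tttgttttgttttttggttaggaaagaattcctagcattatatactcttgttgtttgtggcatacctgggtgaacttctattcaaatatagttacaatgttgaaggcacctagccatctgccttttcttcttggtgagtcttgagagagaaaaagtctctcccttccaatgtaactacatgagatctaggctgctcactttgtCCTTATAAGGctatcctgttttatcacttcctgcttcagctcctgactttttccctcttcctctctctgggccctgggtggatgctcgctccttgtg
The box starts 56 bases before the matched start site in Cnn2, 90 in Actg1, 227 in Vcl, 73 in Vil1 and 47 in Lima1. The Lima1 window lies inside the annotated gene (chr15:99778470-99875456, - strand) and not at its annotated start. The Flna window with GGAATG (chrX:74246485-74246784) also lies inside its gene (chrX:74223461-74249820, - strand). The same holds for the Myl12a window with GGAATG (chr17:71002484-71002783), inside its gene (chr17:70993656-71002878, - strand), and for those of Arpc2 and Myh10. Which start site the counts of these genes came from was not tested. Its letters are identical in Cnn2, Vcl and Lima1, of which Cnn2 (log2 fold change 6.63) and Vcl (2.22) rose while Lima1 (-0.91) fell over all kept cells. The Vcl promoter also holds GGAATG. A match describes the letters of the window, not a site in use.

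Lists of other genes of the same structures, also chosen with earlier results of these data known, gave the wider picture. Of 17 further brush border genes tested, 10 fell and 7 did not pass the threshold by edgeR, with a median log2 fold change of -1.65. They included the plastin Pls1 (903 and 846 against 162 and 193 CPM, log2 fold change -2.30 ± 0.23, SE, edgeR adjusted p = 0.000724), the membrane-bending protein Baiap2l2 (-2.25 ± 0.30, SE, edgeR adjusted p = 0.00213) and the ezrin partner Slc9a3r1 (-1.55 ± 0.22, SE, edgeR adjusted p = 0.00264). Of 29 further stress fibre and adhesion genes, 14 rose and 2 fell, with a median of 0.71. Parva and Lims1, which form a complex with integrin-linked kinase, rose by 2.78 ± 0.28 (SE, edgeR adjusted p = 0.000727) and 2.49 ± 0.28 (SE, edgeR adjusted p = 0.00108) on the log2 scale, while Mylk, the kinase that activates the myosin light chain, fell from 234 and 243 CPM to 24.4 and 11.5 CPM (-3.75 ± 0.37, SE, edgeR adjusted p = 0.000706). Of 27 further genes of filament turnover, 7 rose and 1 fell, with a median of 0.51. Over all 12561 genes tested 30.8% were called, 15.3% higher and 15.5% lower, with a median of 0.05. Counted in either direction, the turnover list was thus called about as often as all genes. The plastin Pls3 stood at 5.66 and 7.03 against 123 and 116 CPM (4.24 ± 0.27, SE, edgeR adjusted p = 0.000202), the bundler of filopodia Fscn1 at 1.42 and 0.879 against 72.6 and 62.7 CPM (5.80 ± 0.39, SE, edgeR adjusted p = 0.000238) and the severing protein Gsn at 29.0 and 71.2 against 630.0 and 407 CPM (3.38 ± 0.46, SE, edgeR adjusted p = 0.00239). Pls3 and Pls1 are both plastins, and they moved in opposite directions in both Lats-deleted libraries. Srf, the transcription factor of many actin genes, stood at 13.5 and 22.9 against 41.6 and 38.0 CPM (1.15 ± 0.31, SE, edgeR adjusted p = 0.0336) and its coactivator gene Mkl1 at 9.91 and 15.8 against 41.3 and 27.9 CPM (1.44 ± 0.36, SE, edgeR adjusted p = 0.0254). The other coactivator gene, Mkl2, stood at 19.8 and 24.6 against 20.3 and 27.3 CPM (0.11 ± 0.30, SE, edgeR adjusted p = 0.813) and missed the threshold.

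The share of cells with a count followed the same division once each cell was thinned to 1000 counts, which removes the difference in depth. For 37 of the 39 genes the shares did not overlap between groups, 32 higher and 5 lower, where 54.6% of the 18698 genes with a count in at least 10 cells did so, 34.6% higher and 20% lower. The 2 counts of listed genes were 32 and 5 after thinning to 2000 counts as well, beside 37.7% and 19.2% of all genes. A two-sided exact permutation test over 4 libraries cannot go below p = 0.333, so these shares are descriptive. Some separations were narrow. At 1000 counts Myl9 had a count in 1 and 0 control cells against 1 and 2 Lats-deleted cells. Actb had one in 97.8% and 94.2% of control cells against 98.2% and 99.5% of Lats-deleted cells. Tmsb4x had a count in 49.2% and 47.4% of cells in the controls and 95% and 96.3% in the Lats-deleted libraries, and Actn1 in 5.17% and 4.47% of cells in the controls and 63.4% and 55.4% in the Lats-deleted libraries. Flna had one in 0.388% and 1.17% of cells in the controls and 28.4% and 26.2% in the Lats-deleted libraries, and Cnn2 in 0% and 0.388% of cells in the controls and 25.2% and 20.3% in the Lats-deleted libraries. The 0 of 774 control cells for Cnn2 has an exact (Clopper-Pearson) 95% interval reaching 0.475%, which covers counting error only. Enterocyte-like cells, which had little of these messages in the controls, also had few or none detected in the Lats-deleted libraries: Flna was found in 0 of 31 and 0 of 19 enterocyte-like cells of the Lats-deleted libraries and Cnn2 in 1 of 31 and 0 of 19, with median depths of 1825 and 1893 counts before thinning. The Flna zeros have exact upper bounds of 11.2% and 17.6%, beside shares of 0.380% and 0.923% in control enterocyte-like cells. So few cells cannot show that the share stayed low. Shares fell for Vil1, which had a count in 43.8% and 40.2% of cells in the controls and 11.4% and 7.21% in the Lats-deleted libraries, and for Myo1a, with 29.6% and 30.9% of cells in the controls and 3.17% and 2.79% in the Lats-deleted libraries. Vil1 and Myo1a were found in 0 of 72 stromal-like cells of Lats-deleted library 1 (median depth 2417.5 counts), which allows a share of up to 4.17% by 3 counts and has an exact upper bound of 4.99%, while Espn was found in 9.72% of the same cells. In the regenerative-like cells of that library Vil1 was found in 11.4% and Myo1a in 1.75% (median depth 4288.5 counts), and in those of library 2 in 12.3% and 2.05% (median depth 3932 counts). Without thinning, Vil1 had a count in 60.2% and 58.3% against 34.6% and 27.2% of cells, and Flna in 1.03% and 1.94% against 57.6% and 56.2%.

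**Figure D2:**
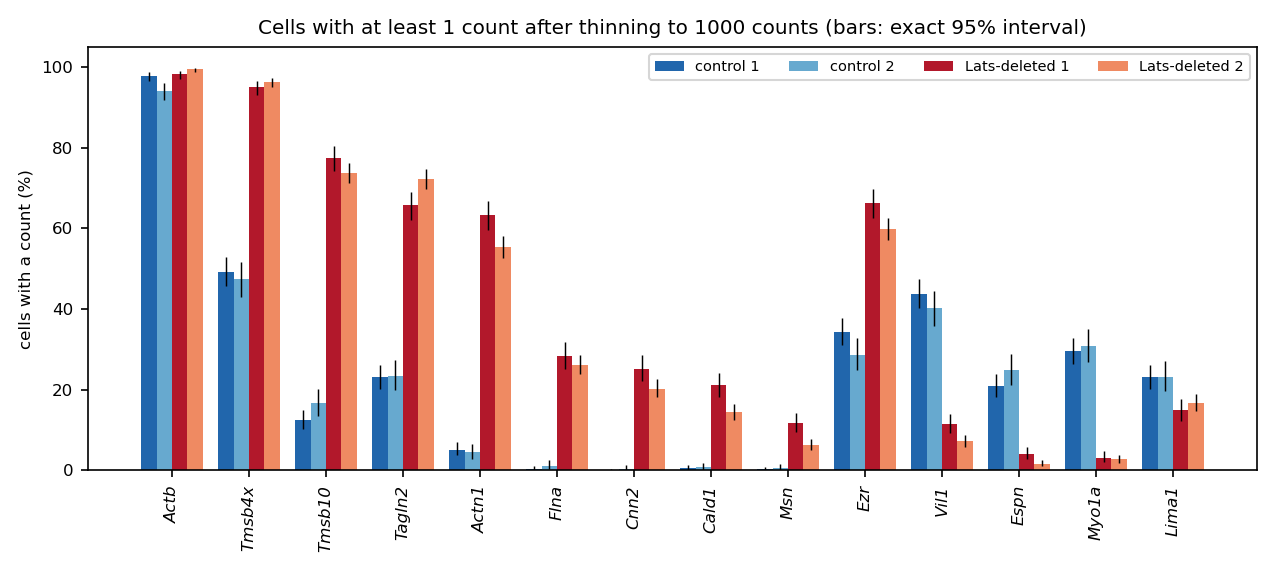
Percent of kept cells with at least 1 count of 14 of the genes after each cell was thinned to 1000 counts, by library, with exact 95% intervals as error bars. Tmsb4x rises from 47.4% to 49.2% of control cells to 95% and 96.3%, while Vil1, Espn and Myo1a fall in both Lats-deleted libraries.

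Cell states were taken from clusters of the kept cells made without the listed genes among the variable genes, and were named from marker lists. Enterocyte-like cells numbered 527 and 325 in the controls and 31 and 19 in the Lats-deleted libraries. Regenerative-like cells numbered 1 and 0 in the controls and 572 and 438 in the Lats-deleted libraries. This state thus has no control to be compared with. It pools clusters 2, 3, 7 and 9. Leading genes included Ankrd1, Krt14 and Cyr61 in cluster 2, Fxyd6 and Krt14 in cluster 3, Clca4a and Reg3b in cluster 7, and Wfdc18 and Duox2 in cluster 9. Levels differed between these clusters, as for Msn, picked after its values were seen. Msn stood at 189 and 211 CPM in cluster 2 of the Lats-deleted libraries and at 28.9 and 9.17 CPM in cluster 7. Stem-like cells were found in the controls (33 and 11) and not in the Lats-deleted libraries, cycling progenitor-like cells almost entirely in the latter (36 and 512, against 1 and 0). Stomach-like cells were 284, all in Lats-deleted library 2, and stromal-like cells 72 and 8. A further large cluster of the controls, led by Gvin1, Cps1 and Aldh1b1, stayed unnamed, with 149 and 127 control cells and 10 and 7 Lats-deleted cells.

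Within enterocyte-like cells no listed gene was called. Actb stood at 7546 and 7092 CPM in the controls against 7659 and 7068 CPM in the Lats-deleted pair of these cells, a log2 fold change of 0.01 ± 0.22 (SE, edgeR adjusted p = 0.997). Vil1 stood at 786 and 754 CPM in the controls against 569 and 1113 CPM in the Lats-deleted pair, a log2 fold change of 0.09 ± 0.26 (SE, edgeR adjusted p = 0.989). The groups overlapped in both genes. Myo1a was at 485 and 513 against 584 and 453 CPM (0.07 ± 0.25, SE, edgeR adjusted p = 0.991), Espn at 390.2 and 457 against 477 and 288 CPM (-0.11 ± 0.28, SE, edgeR adjusted p = 0.984), Ezr at 632 and 569 against 492 and 721 CPM (-0.01 ± 0.25, SE, edgeR adjusted p = 0.997) and Tmsb4x at 787 and 747 against 831 and 680.0 CPM (-0.01 ± 0.24, SE, edgeR adjusted p = 0.997). Of 26 listed genes tested, 0 passed the threshold by edgeR, 0 by DESeq2, and 2 had an unadjusted p under 0.05, Actn1 (1.63, 12.7 and 22.1 against 46.1 and 61.8 CPM) and Arpc5 (0.72, 245 and 274 against 338 and 536 CPM). Over all 5121 genes tested in these cells 0.156% were called, 0.0586% higher and 0.0976% lower, and 7.24% had an unadjusted p under 0.05. Of the 26 genes, 5 had both Lats-deleted libraries above both controls (16.9% of all genes) and 3 had both below (24.7%). The median log2 fold change of the 26 genes was 0.08, beside -0.05 over all genes. A missed threshold does not show equality, and the 95% intervals of the log2 fold change were -0.45 to 0.47 for Actb, -0.45 to 0.63 for Vil1, -0.44 to 0.59 for Myo1a and -0.50 to 0.48 for Tmsb4x. None of these intervals reached the log2 fold change of the same gene over all kept cells (0.98, -2.53, -3.85 and 2.55). The state was named by high enterocyte markers, so its brush border levels are not independent of how its cells were picked. Whether the 31 and 19 enterocyte-like cells of the Lats-deleted libraries had lost Lats1 and Lats2 was not tested. For scarce genes the interval was wide, as for Tpm4 (-1.93 to 1.34). Flna, Cnn2, Cald1, Msn, Pdlim7 and Csrp1 had too few counts in enterocyte-like cells to pass the filter and were not tested. Regenerative markers summed to 170 and 681 CPM in the Lats-deleted enterocyte-like cells and to 40.8 and 40.4 CPM in the control ones, and stomach markers to 28.3 and 341 CPM against 106 and 45.8 CPM.

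**Figure D3:**
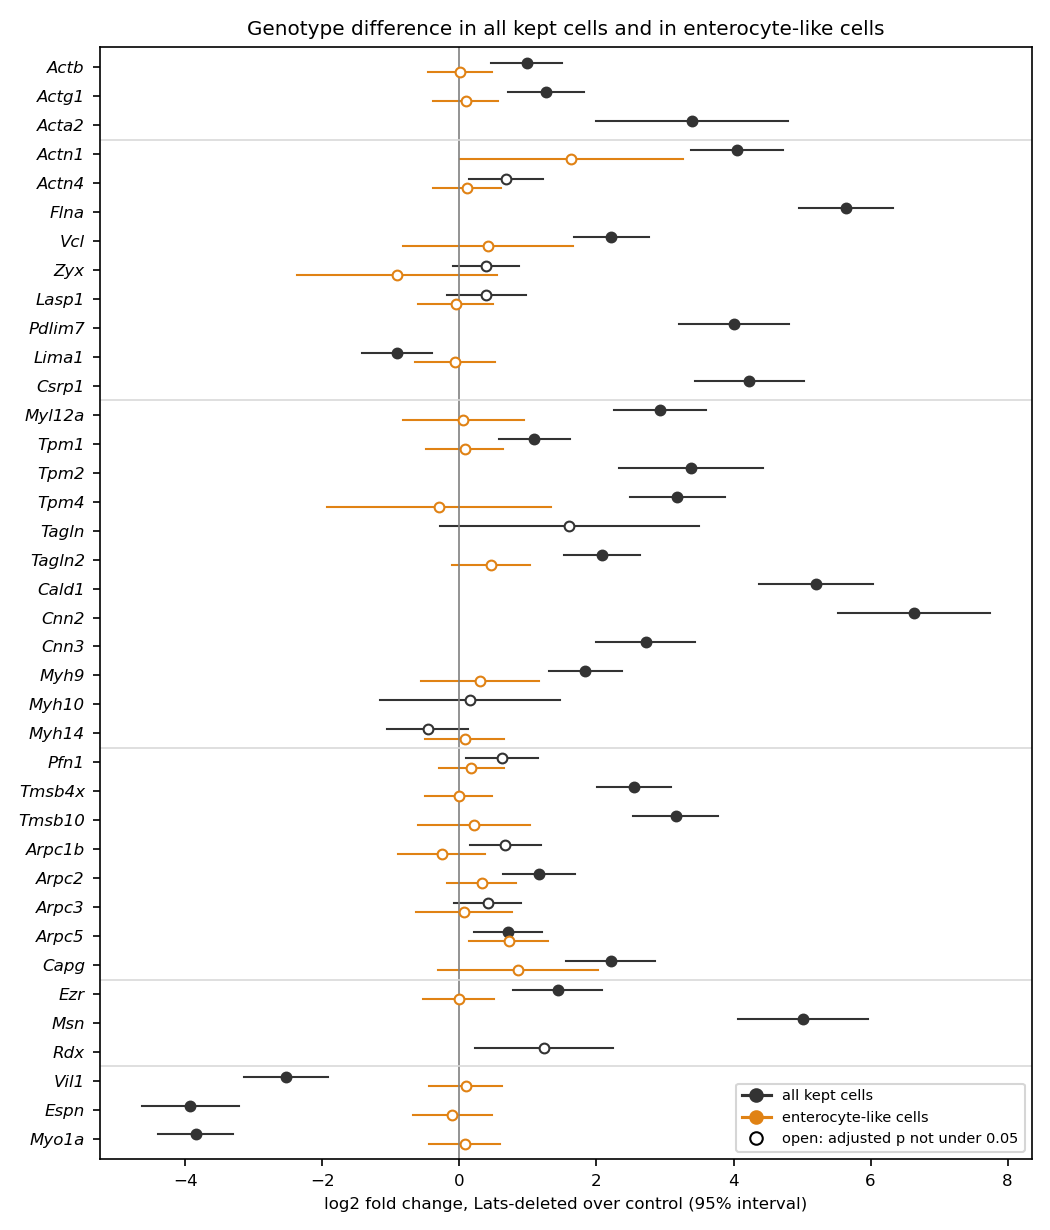
Log2 fold change of Lats-deleted over control with its 95% interval, for all kept cells (dark) and enterocyte-like cells (orange), 1 gene per line and grouped by role from actins at the top to brush border at the bottom. Filled points passed an adjusted p under 0.05 and open points did not: all points for enterocyte-like cells are open, and Vil1, Espn and Myo1a lie near 0 there while all kept cells are at -2.53 to -3.92.

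The division of the whole libraries returned in the class named progenitor cells here, whose 2 groups had unlike markers, as given below. This comparison sets the stem-like cells of the controls (cluster 14) beside the cycling progenitor-like cells of the Lats-deleted libraries (clusters 1 and 10), with 34, 11, 36 and 512 cells, so that different clusters hold the 2 groups (1 control cell fell in cluster 1). Of 31 listed genes tested, 18 rose, 2 fell and 11 did not pass the threshold by edgeR, where 15.3% of the 2706 genes tested were called, 8.39% higher and 6.91% lower. The median log2 fold change was 1.66, beside 0.14 over all genes, and the same with the genes that had no control count at their lower bounds. Flna stood at 29.8 and 34.1 CPM in the controls against 604 and 545 CPM in the Lats-deleted pair, a ratio of 17.7 with a 95% counting interval of 6.02 to 85.7, since the controls held 3 counts. Tmsb10 stood at 209 and 136 CPM in the controls against 2687 and 1888 CPM in the Lats-deleted pair, a log2 fold change of 3.66 ± 0.45 (SE, edgeR adjusted p = 0.00054). Both Lats-deleted libraries lay above both controls in these genes. Actb stood at 5364 and 3067 against 16209.6 and 15597 CPM (1.91 ± 0.34, SE, edgeR adjusted p = 0.00394), Tagln2 at 507 and 682 against 2399.8 and 2081 CPM (1.93 ± 0.38, SE, edgeR adjusted p = 0.00631) and Ezr at 551 and 239 against 1516 and 1164 CPM (1.69 ± 0.46, SE, edgeR adjusted p = 0.0315). Cnn2, Pdlim7, Cald1 and Msn had no count in either control, and were at least 10.2-fold, 8.04-fold, 7.35-fold and 3.94-fold higher in the Lats-deleted cells, taking 3 counts over both controls as the floor. Capg had 1 control count, a ratio of 11.6 with a 95% counting interval of 2.05 to 458. Myo1a fell from 224 and 239 CPM to 0 and 13.2 CPM (-4.33 ± 0.70, SE, edgeR adjusted p = 0.00197), and Vil1 from 536 and 136 CPM to 93.4 and 47.7 CPM (-2.60 ± 0.62, SE, edgeR adjusted p = 0.0171). The genes that did not pass included Actg1 (0.93), Vcl (1.5), Arpc2 (1.48), Pfn1 (0.76), Lima1 (-0.70) and Cnn3 (0.36).

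The 2 sides of the progenitor comparison were not matched in other respects. Stem markers summed to 235 and 252 CPM in clusters 1 and 10, against 1023 CPM in cluster 14. Cycling progenitor markers summed to 1550 and 2987 CPM against 2164 CPM, and none was among the 10 leading genes of cluster 1. Enterocyte markers summed to 15281 and 1324 CPM in the control progenitor cells and to 368 and 179 CPM in the Lats-deleted ones, and stomach markers to 21.4 and 0 CPM against 45.3 and 3356 CPM. Regenerative markers summed to 42.8 and 0 CPM against 14339 and 9431 CPM. The part of these cells in the result was not tested. Without Lats-deleted library 2, which held the stomach markers, the calls of Vil1, Cald1, Capg, Csrp1, Myh9 and Tpm1 were lost. Without control library 1 the calls of Vil1, Capg, Csrp1, Msn, Tmsb4x and Tpm1 were lost. The Vil1 log2 fold change was then -0.84 (edgeR adjusted p = 0.653). Without control library 2 the calls of Actb, Actn4, Ezr, Myh9 and Tpm1 were lost. Without Lats-deleted library 1 the Tpm1 call was lost. Under DESeq2 11 listed genes rose and 1 fell, where 262 of 6183 genes were called. With each cell thinned to 1000 counts 12 of 19 listed genes tested rose, where 119 of 573 genes were called. At a cluster resolution of 2 the class held 104, 57, 29 and 223 cells, and 22 listed genes were called, 20 higher and 2 lower, where 17.5% of all genes were called, 8.91% higher and 8.64% lower. All 20 genes called at the first resolution were called in the same direction at the second.

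The difference between these effects was tested directly, with the library as a block. It was the Lats-deleted against control effect in progenitor cells minus that in enterocyte-like cells. The 2 progenitor groups came from different clusters, so genotype and cell state cannot be told apart in it. Of 32 listed genes tested, 3 passed the threshold by edgeR, where 4.39% of 3534 genes did. Myo1a fell more in progenitor cells (difference -4.44 ± 0.83, SE, edgeR adjusted p = 0.011), while Tmsb10 (3.35 ± 0.70, edgeR adjusted p = 0.02) and Myl12a (3.14 ± 0.75, edgeR adjusted p = 0.0377) rose more there. Without Lats-deleted library 1 none passed, with differences of -3.36, 3.41 and 3.17 for Myo1a, Tmsb10 and Myl12a (edgeR adjusted p = 0.123, 0.141 and 0.218). Without Lats-deleted library 2 the Myo1a difference was -8.48. Actb had a difference of 1.90 (edgeR adjusted p = 0.0838), Espn -3.88 (edgeR adjusted p = 0.0732) and Vil1 -2.54 (edgeR adjusted p = 0.121). The Espn difference was 4.91 without control library 1 (edgeR adjusted p = 0.835) and passed the threshold without control library 2 (-4.67) and with plain library totals. For these and the other 26 listed genes a difference between the classes was not shown in the fit to all 4 libraries, and for Msn the difference could not be estimated.

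Across the cell states of 1 library the genes varied widely, and these levels, in plain CPM of the counts of a state, are given as a description, in which Actn1, Cnn2, Cald1, Espn and Rdx were picked after their values were seen. In the controls, enterocyte-like cells were lower than goblet-like cells in several of the genes. Paneth genes such as Defa24 were also among the leading genes of the goblet-like cluster. Leukocyte markers summed to 3518 CPM in that cluster over all libraries, against 56.2 to 218 CPM in the enterocyte-like clusters. Their part in the goblet-like levels was not tested. Actn1 was at 11.4 and 20.2 CPM in enterocyte-like and 277 and 226 CPM in goblet-like cells. Tmsb10 was at 111 and 140.1 CPM against 846 and 1188 CPM. Tmsb4x was at 705 and 683 CPM against 2379 and 2505 CPM in goblet-like and 1819 and 3887 CPM in stem-like cells. In all 3 genes the goblet-like cells of both controls were above the enterocyte-like cells. Flna was at 0 and 8.08 CPM in goblet-like and 3.79 and 6.73 CPM in enterocyte-like control cells. In the unnamed control cluster Myo1a was at 373 and 345 CPM, near the 435 and 469 CPM of enterocyte-like cells, while Espn was at 54.7 and 30.2 CPM, against 349.8 and 418 CPM.

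In the Lats-deleted libraries, regenerative-like cells were set beside cycling progenitor-like and enterocyte-like cells. Stromal-like cells of library 1 and stomach-like cells of library 2 were added. Flna was at 432 and 556 CPM in regenerative-like cells, 475 and 413 CPM in cycling progenitor-like cells and 155 CPM in stomach-like cells of library 2. Cnn2 was at 441 and 483 CPM, 272 and 239 CPM and 116 CPM in the same order. Actb was at 14356 and 17208 CPM in regenerative-like, 12766 and 11829 CPM in cycling progenitor-like and 7049 and 6873 CPM in enterocyte-like cells. Tpm4 was at 642 and 612, 634 and 319, and 14.2 and 60.1 CPM in that order of states. In filamin and calponin the stomach-like cells thus lay below the regenerative-like and cycling progenitor-like cells of their own library, whose enterocyte-like cells were at 0 CPM of Flna and 40.1 CPM of Cnn2 (2 counts). Tmsb4x (9897 CPM) and Tagln2 (1956 CPM) of stomach-like cells stood beside 9998 and 1454 CPM in regenerative-like cells. Ezr was at 1839 and 1505 CPM in regenerative-like cells and 453 and 701 CPM in enterocyte-like cells of the same libraries, whereas Vil1 was at 132 and 151 CPM against 524 and 1082 CPM. The order of the 2 states was opposite for the anchor and the bundler of the microvillus. Stromal-like cells of library 1 had the highest levels of Cald1 (442 CPM), Rdx (99.9 CPM) and Tagln (47.3 CPM) of the states in the plot of levels by state. They had no count of Vil1, Myo1a or Myh14, but 84.1 CPM of Espn. After thinning to 1000 counts, Espn was found in 7 of 72 of these cells.

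**Figure D4:**
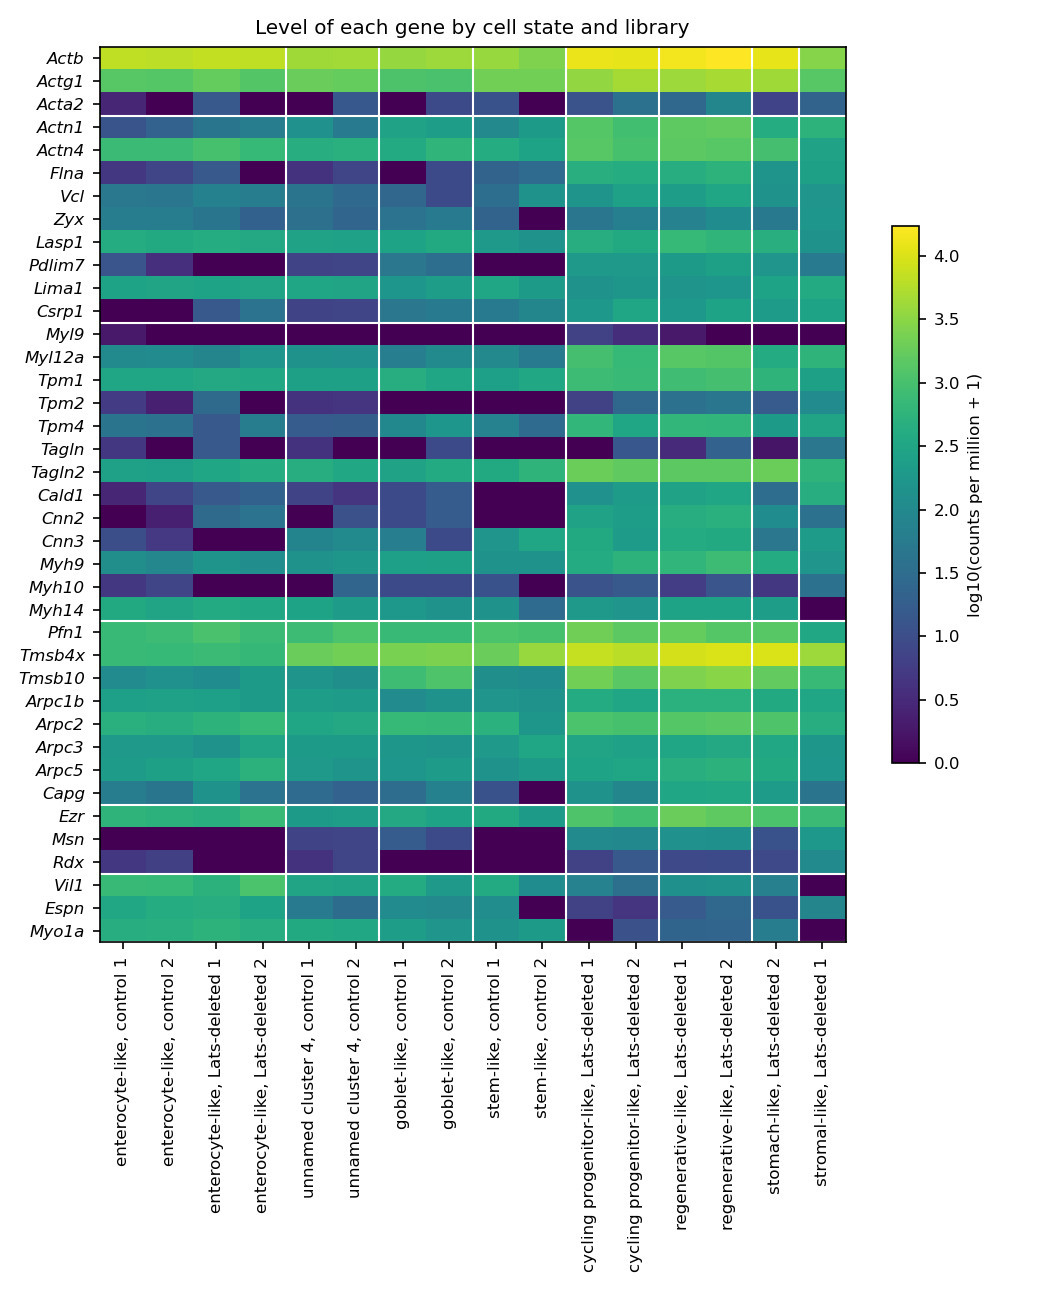
Level of each of the 39 genes, as log10 of CPM plus 1, in each cell state and library shown, with genes as rows by role and states as columns. Rows are read across and not compared with each other: Flna, Cnn2 and Cald1 are dark in all control states and bright in cycling progenitor-like and regenerative-like cells, and Vil1, Espn and Myo1a are bright in enterocyte-like cells of all 4 libraries.

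Set against each other, the 18 genes of a stress fibre set and the brush border genes separated the states in the same way. Both sets were chosen with earlier results of these data known. Over all kept cells the stress fibre set summed to 1333 and 1300.0 CPM in the controls and to 7146 and 6563 CPM in the Lats-deleted pair. Vil1, Espn and Myo1a together summed to 1225 and 1205 CPM in the controls and to 193 and 142 CPM in the Lats-deleted pair. With Ezr, that sum was 1694 and 1613 against 1892 and 1283 CPM, so that with ezrin included the groups overlapped. In enterocyte-like cells the ratio of the stress fibre sum to the 4-gene brush border sum was 0.584 and 0.544 in the controls and 0.717 and 0.592 in the Lats-deleted libraries. It was 1.59 and 2.47 in goblet-like and 1.60 and 1.53 in unnamed control cells, and 1.52 and 4 in stem-like cells, of which control library 2 held 11. In the Lats-deleted libraries it reached 3.77 and 4.95 in regenerative-like, 5.51 and 6.63 in cycling progenitor-like, 3.89 in stomach-like and 4.78 in stromal-like cells. The enterocyte-like cells of the 2 groups lay near each other, and the regenerative-like, cycling progenitor-like, stomach-like and stromal-like cells lay above the control states apart from the stem-like cells of control library 2, whose ratio of 4 lay among them.

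**Figure D5:**
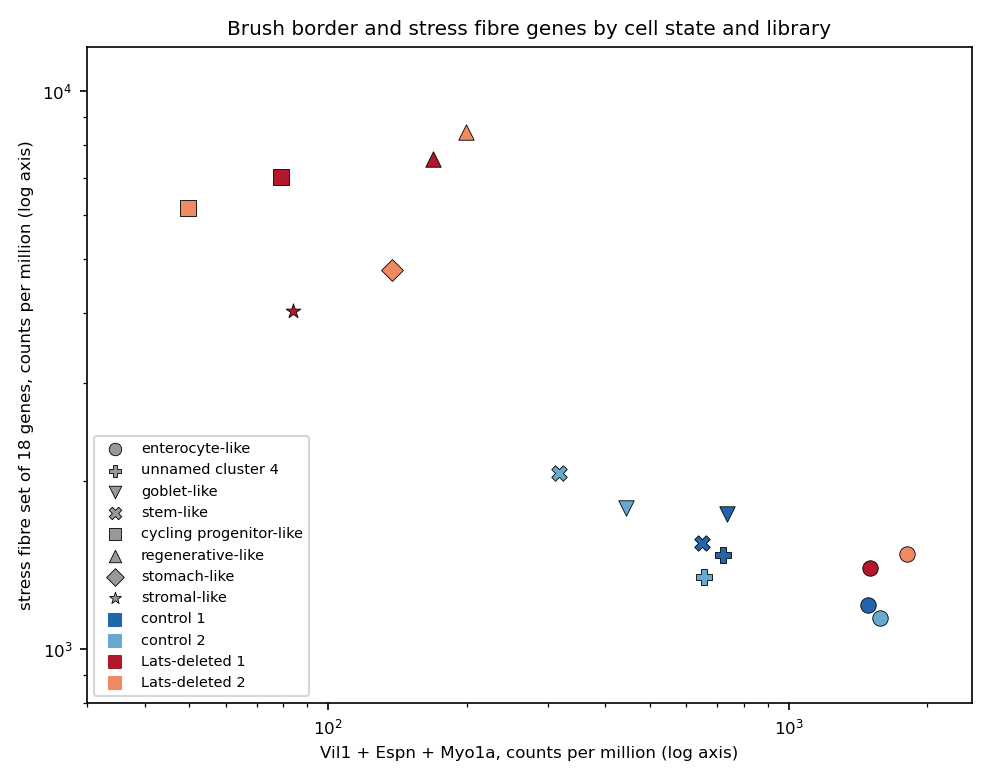
Summed level of the stress fibre set against that of Vil1, Espn and Myo1a, each in CPM on a log axis, with 1 symbol per cell state and 1 colour per library. Enterocyte-like cells of all 4 libraries sit together at the lower right (1139 to 1483 CPM of stress fibre genes), and regenerative-like, cycling progenitor-like, stomach-like and stromal-like cells sit at the upper left, at 4044 CPM or more.

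The 2 sums were also compared from cell to cell within a library and state. In cells with at least 2000 counts, thinned to 2000, Spearman's correlation between the stress fibre sum and the sum of Vil1, Espn and Myo1a was -0.19 over 448 regenerative-like cells of Lats-deleted library 1 and -0.11 over 335 of library 2. In enterocyte-like cells it was 0.02 over 187 cells of control library 1 and -0.02 over 148 of control library 2. The lowest value was -0.34, over 22 stem-like cells of control library 1, and the highest 0.54, over 25 goblet-like cells of control library 2. The cells of a state share their library and its depth, and the brush border sum averaged 0.359 and 0.385 counts per regenerative-like cell, so that these values describe sparse counts and no relation is read from them.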

How the data were processed

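The 4 inDrop libraries, 2 per group, were analysed from tables of whole-number counts per gene and cell barcode that the authors deposited. The submitters' processing notes name RSEM 1.3.0, the build mm10, Bowtie 1.1.1.1 and SAMtools 1.3.1. Whether the counts are of molecules is not given in the sources used here. Barcodes with at least 1000 counts, 300 genes and at most 30% mt- counts were kept. No doublet caller was run and no doublets were removed.

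Cells were scaled to 10000 counts, and 2000 variable genes without the listed genes, 30 principal components, 15 neighbours and a Leiden resolution of 1 gave 18 clusters (scanpy 1.11.5, leidenalg 0.10.2). A cluster was named from a marker list with at least 3 detected markers. Counts were summed per library, over all kept cells or a cell class, and tested with edgeR 4.0.16 (quasi-likelihood, TMM scaling, Benjamini-Hochberg adjustment over all genes that passed edgeR's filter), with groups taken from the labels. The class difference had the library as a block. CPM is TMM-scaled in tests and plain by state. A minimum of 20 cells per library and class was planned, and 10 was used, chosen after seeing the data, since control library 2 held 11 progenitor cells and Lats-deleted library 2 held 19 enterocyte-like cells. Self-tests ran on simulated data. All listed genes were described, and up to 3 genes of each other list were named, by smallest p among those called whose groups did not overlap, plus Srf and its coactivator genes. A further list of signalling genes is not reported here. Myl12b was named for its shared 3' end. The members and lists were chosen with earlier results of these data known. Words of 40 bases in the last 400 bases of transcripts measured sharing between 3' ends. Scripts used Python 3.11.15, scipy 1.17.1, R 4.3.3, limma 3.58.1 and DESeq2 1.42.0.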

Additional observations from a re-analysis of the deposited data

Results flagged for a closer look

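For 3 genes the genotype effect differed between progenitor and enterocyte-like cells by edgeR's test of the difference itself: Myo1a by -4.44, Tmsb10 by 3.35 and Myl12a by 3.14 on the log2 scale. In the fit without Lats-deleted library 1 the 3 kept their sign and did not pass, with the values given above.

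Barcodes with fewer than 500 counts were used in no comparison, and their stress fibre genes followed the libraries. The set summed to 1147 and 933 CPM in these barcodes of control libraries 1 and 2, and to 5403 CPM in Lats-deleted library 1 and 6626 CPM in Lats-deleted library 2. The brush border set with Ezr summed to 1526 and 1285 CPM against 1651 and 1502 CPM in the same barcodes. This limit of 500 counts was chosen after seeing the data.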

How the results depend on the processing

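No value changed direction among those with a call. The uncalled class differences of Espn and Lima1 did, with ranges of -4.67 to 4.91 and -1.02 to 0.43. Over all kept cells, where 28 listed genes were called, leaving out 1 library each gave 18 to 33, with the lowest without control library 1, and the other settings gave 26 to 34. Of the 28, 18 kept their call in all 14 alternatives and 10 lost it in at least 1, while 9 of the 10 genes without a call were called in at least 1. Fits without a library leave 1 group with a single library. In progenitor cells, where 20 were called, DESeq2 called 12, thinning each cell to 1000 counts left 12, and leaving out 1 library gave 13 to 19, with the lowest without Lats-deleted library 2. In enterocyte-like cells the count was 0 in every setting that could be fitted. Over all genes 1 of 2839 was called after thinning and 96 of 21373 without a filter on low counts. The 3 class differences became 8 with plain library totals (284 of 3534 over all genes) and 6 after thinning to 1000 counts (121 of 872). Their number fell without Lats-deleted library 1 and rose when any other library was left out. The cause of these shifts was not tested, apart from the fewer genes tested after thinning. The log2 ratio of the brush border sum was -0.06 with Ezr and -2.86 without it, while that of the stress fibre sum lay between 2.37 and 2.40.

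Replicate differences correlated little between the groups, by 0.047, 0.0083 and 0.0034 in all kept, progenitor and enterocyte-like cells. This cannot settle whether the replicate numbers pair the samples. With the replicate number as a block, 26, 22 and 0 listed genes were called, beside 4162 of 12561, 465 of 2706 and 9 of 5121 over all genes. The progenitor class with the listed genes among the variable genes, and both classes at 2000 counts per cell, could not be fitted with 10 cells per library. Counts limit scarce genes such as Myl9, Tagln and Myh10.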
